A study of Mus musculus with 6 samples.

Results

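The 39 genes described here repair double-strand breaks and interstrand crosslinks in DNA, or signal that such lesions are present. They were listed by name, not by their values, and were found on the array by gene symbol. Of the 39, 37 have a probe set assigned to 1 symbol, among 18193 genes with such a probe set on the array. Xrcc2 and Rbbp8 were not matched to a probe set with 1 symbol and were not analysed here. The 37 comprise 11 genes of homologous recombination, 4 of break sensing and end resection, 8 of damage signalling, 5 of end joining, 8 of the Fanconi group (with the nuclease scaffold Slx4 counted among them) and Parp1. They are measured by 80 probe sets, 23 genes by more than 1, and each gene was represented by its probe set of highest mean.

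The mRNA of undifferentiated mouse embryonic stem (ES) cells was measured on 6 Affymetrix Mouse Genome 430 2.0 arrays, each holding 1 sample. GTF2IRD2, a TFII-I transcription factor gene, is among the genes that can be lost in Williams-Beuren syndrome. Every sample came from the EBRTcH3 (EB3) line, grown with leukemia inhibitory factor, with the human GTF2IRD2 coding sequence and a 3xFLAG tag inserted at ROSA26 behind a promoter that tetracycline represses. The authors' methods name the longest annotated coding sequence. The insert they print for GTF2IRD2 is much shorter than those for the related genes GTF2I and GTF2IRD1. Uninduced samples of clones A3, A4 and A5 were kept in tetracycline (0 hours without it), and induced samples of the same clones were deprived of it for 24 hours. Both groups thus carry the transgene, each holds 3 arrays, and no line without the transgene was among them. Each of A3, A4 and A5 is a single clone. The inserted sequence is human and lacks untranslated regions, so mouse probe sets need not detect it, and induction of the transgene was not read from these arrays. The authors' RT-PCR gave a higher GTF2IRD2 transcript level at 24 hours without tetracycline than at 0 hours in each of A3, A4 and A5.

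A double-strand break is recognised by the MRE11-RAD50-NBN complex, which activates the kinase ATM, whereas single-stranded DNA at resected ends and stalled forks activates ATR. The break is then sealed by end joining, in which the Ku heterodimer, DNA-PKcs and the ligase complex of XRCC4 and LIG4 rejoin ends directly, or by homologous recombination, in which BRCA1, PALB2 and BRCA2 act at resected ends so that the sister chromatid serves as template. Interstrand crosslinks are unhooked by the Fanconi pathway, in which a core complex that includes FANCA, FANCC, FANCG, FANCL and FANCM ubiquitinates FANCD2 and FANCI. ES cells spend much of their short cycle in S phase and are known for repairing breaks largely by homologous recombination.

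Values are log2 RMA signals, in which a difference of 1 is 2-fold. The medians of the 6 arrays lay between 5.03 and 5.06. All 10 ES cell markers that were examined, among them Pou5f1 and Nanog, had mean signals of at least 9.83, and their array means lay between 11.80 and 11.85. Array means of markers of other cells were lower, at 4.67 to 4.76 for 8 genes of fibroblasts and feeder cells, 4.66 to 4.83 for 6 of endoderm, 5.26 to 5.55 for 3 of mesoderm, 6.57 to 6.75 for 4 of neural cells and 5.76 to 6.43 for 4 of trophoblast. The 2 arrays of clone A3 had the highest poly-A spike signal of their groups, 6.17 uninduced against 5.71 and 6.03, and 6.46 induced against 6.11 and 6.15. The labels name replicates by clone and not by separate culture. In the test of induction that leaves the clone out, p-values therefore measure the spread between these clones. In fits of clone and induction together, they measure the scatter left between arrays after both are taken out. In the alternative with the clone term alone, that scatter also holds the induction difference. Such p-values do not measure how clones vary in general, and 3 arrays per group limit the precision.

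Many repair genes are transcribed with the S phase genes that E2F factors control, so their promoter sequences are shown before the values. RefSeq promoters (GRCm38.p6, 250 bases before the listed start of a gene and 50 after it) were at hand for 30 of the 37 genes. Rad50, Nbn, Exo1, Rad54b, Prkdc, Wrn and Fancd2 had no entry. Any of the E2F words TTTGGCGC, TTTCCCGC, TTTGCCGC and TTTCGCGC, read on both strands, occurred in 7 of the 30 genes (23.3%). The share was 3.81% of 14453 array genes with a promoter entry, and 2.26% of all 32851 promoters taken singly. A gene was counted when any of its listed promoters held a word, and 3 of the 30 genes had over 1 entry. These 7 genes act in recombination (Bard1, Brca2, Rad51c), signalling (Chek2, Mdc1), end joining (Xrcc6) and the Fanconi core (Fancg). The same words were in 5 of 11 S phase genes and in 2 of 44 other genes of the pathway, counted in the same way. The windows of 30 bases around 1 match per gene are shown to place the word relative to the start. They run 5′ to 3′ on the strand of the gene, with the match in capitals. Where the word reads GCGGGAAA it lies on the opposite strand.
Bard1, chr1:71103163-71103192, minus strand, 209 bases before the start: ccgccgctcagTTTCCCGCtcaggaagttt
Brca2, chr5:150522442-150522471, plus strand, 168 bases before the start: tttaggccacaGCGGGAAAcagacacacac
Chek2, chr5:110839820-110839849, plus strand, 152 bases before the start: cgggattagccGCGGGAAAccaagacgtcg
Fancg, chr4:43010335-43010364, minus strand, 52 bases before the start: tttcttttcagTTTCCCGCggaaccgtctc
Mdc1, chr17:35841471-35841500, plus strand, 16 bases before the start: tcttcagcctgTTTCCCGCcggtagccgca
Rad51c, chr11:87404941-87404970, minus strand, 5 bases before the start: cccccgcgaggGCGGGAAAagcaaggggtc
Xrcc6, chr15:82016312-82016341, plus strand, 46 bases before the start: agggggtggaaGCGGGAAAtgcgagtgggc
All 7 windows hold the same word, TTTCCCGC, in 1 orientation or the other. A second listed start of Rad51c has the word TTTCGCGC 11 bases after it. A match describes letters in a window and not a bound site.

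Other words were searched beside them. CCAAT, the box bound by NF-Y, occurred in 17 of the 30 genes (56.7%), among them Atm, Blm, Brca1 and Fanca, against 42.0% of array genes. TTTGAA, the core of the cell cycle homology region of many G2 and M phase genes, occurred in 2 (6.67%; Bard1 and Rnf8) against 15.7%. The NRF1 word GCGCATGC occurred in 5 (16.7%; Atm, Fanci, Fancm, Lig4 and Xrcc5) against 4.68%, and with GC added at its end, as searched first, in 1 (3.33%; Lig4) against 1.75%. The GC box GGGGCGGGG was in 5 genes (16.7%, against 20.3% of array genes) and the TATA word TATAAA in 3 (against 11.5% of array genes). The cyclic AMP response element TGACGTCA was in 2 (6.67%, against 2.92%) and the ETS word CCGGAAGT in 2 (6.67%, against 6.62%). Xrcc6 and Mdc1 hold an E2F word, CCAAT and a GC box. In all, 9 motifs were searched on both strands, after the expression values had been seen, and the shares were not tested.

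Signals of the repair genes were mostly above those of the median gene. Their median mean signal was 7.91, against 6.15 over all genes, and 35 of 37 exceeded that median. The exceptions were Bard1 and the helicase Wrn (mean 6.09). A signal also depends on how well a probe set binds its target, so signals of different genes are not ordered here as amounts of mRNA. The 3 main routes had overlapping ranges. Homologous recombination genes had a median of 7.88 (5.86 to 9.77, 11 genes), end joining genes 7.57 (6.37 to 9.86, 5 genes) and Fanconi genes 7.64 (6.75 to 9.36, 8 genes), and the median gene of each ranked at percentile 69.2, 65.6 and 66.4 of all genes. With the mean of all probe sets of a gene in place of the highest, the Fanconi median was 6.48 and those of recombination and end joining were 7.41 and 7.15. Resection genes had a median signal of 8.91 (7.87 to 9.46) and signalling genes 8.35 (6.17 to 9.95). Parp1, which binds strand breaks and coats proteins nearby with ADP-ribose, had the highest signal of the 37, 11.49 ± 0.07 (SD, n = 6).

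**Figure D1:**
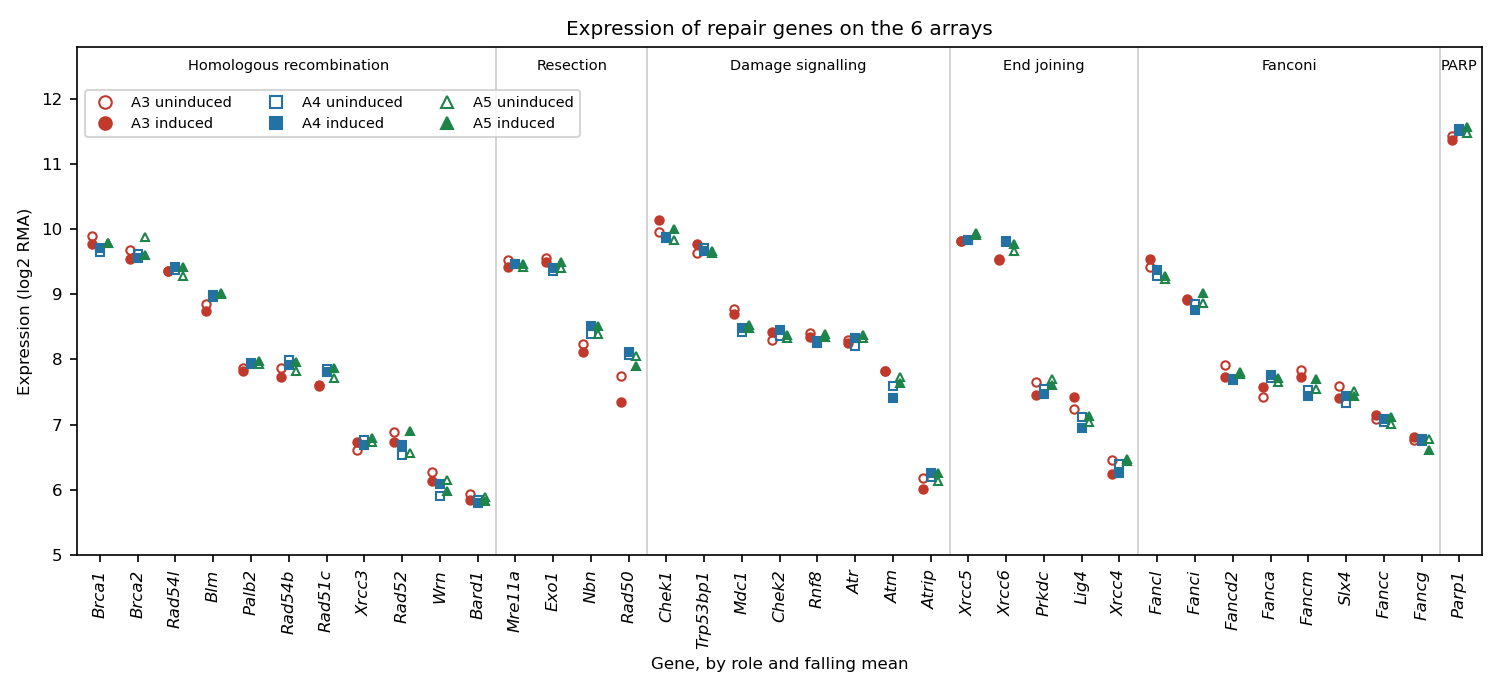
Log2 RMA signal of the 37 genes (y axis) on each of the 6 arrays, grouped by role and ordered within a role by mean (x axis); uninduced arrays have open symbols and induced arrays filled ones, with colour and shape giving the clone. Signals run from Bard1 (mean 5.86) to Parp1 (mean 11.49), and for most genes the 6 arrays lie close together, with Rad50 in clone A3 the widest departure.

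In homologous recombination, Brca1, the ubiquitin ligase that promotes resection and recruits PALB2, had the highest signal, at 9.90, 9.65 and 9.79 in uninduced A3, A4 and A5 and 9.77, 9.72 and 9.79 in induced A3, A4 and A5. Bard1, its obligate partner, had the lowest, at 5.94, 5.84 and 5.88 uninduced and 5.85, 5.80 and 5.83 induced. The 6 arrays of each gene lay within a narrow band, and uninduced and induced arrays overlapped for both.

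In end joining, Xrcc5, which encodes the larger Ku subunit, gave 9.82, 9.83 and 9.94 uninduced and 9.82, 9.83 and 9.91 induced in A3, A4 and A5. Both arrays of A5 were above the other 4. Xrcc4, the scaffold of DNA ligase IV, gave 6.45, 6.40 and 6.44 uninduced and 6.24, 6.25 and 6.46 induced. The induced A3 and A4 arrays were the lowest and the induced A5 array the highest, so the groups overlapped, and the difference was -0.11. The second Xrcc4 probe set, with a mean of 5.76, went the other way and was higher in all 3 clones, by 0.23 on average (unadjusted p 0.0571 and adjusted p 1 in limma's test across all probe sets). The other Ku gene, Xrcc6, had a mean of 9.69, Prkdc, which encodes the DNA-PK catalytic subunit, 7.57, and the ligase gene Lig4 7.15.

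In the Fanconi group, Fancl, the ubiquitin ligase of the core complex, gave 9.41, 9.28 and 9.24 uninduced and 9.55, 9.37 and 9.29 induced in A3, A4 and A5. Both A3 arrays were above the other 4. Fancg, an adaptor of the core complex, gave 6.76, 6.74 and 6.77 uninduced and 6.81, 6.78 and 6.62 induced, with induced A5 the lowest. The substrates Fanci and Fancd2 had means of 8.89 and 7.77.

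The remaining genes are given by mean signal. In recombination these were Brca2 (9.65), the PALB2 partner, the translocase genes Rad54l (9.37) and Rad54b (7.88), the helicase gene Blm (8.93), the BRCA1-BRCA2 bridge Palb2 (7.91), the strand exchange cofactors Rad51c (7.74) and Xrcc3 (6.72), and Rad52 (6.72), an annealing factor. In resection, the nuclease genes Mre11a and Exo1 had means of 9.46 and 9.45 and Nbn, which encodes the adaptor that brings ATM to the complex, 8.36. In signalling, the effector kinase genes Chek1 and Chek2 had means of 9.95 and 8.37, the chromatin adaptor genes Trp53bp1 and Mdc1 9.68 and 8.57, the ubiquitin ligase gene Rnf8 8.34, the apical kinase genes Atr and Atm 8.30 and 7.67, and Atrip, the partner of Atr, 6.17. In the Fanconi group, Fanca had 7.64, the core translocase gene Fancm 7.63, Slx4 7.46 and Fancc 7.08. The SD over the 6 arrays had a median of 0.0922 across the 37 genes, from 0.0416 for Mre11a to 0.292 for Rad50, against 0.105 for all genes. Genes with an E2F word had a median signal of 8.37 (7 genes) and those with a promoter entry and no such word 8.30 (23 genes).

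Whether 24 hours without tetracycline was accompanied by a difference in repair gene mRNA was asked by comparing induced with uninduced arrays. No repair gene passed the test. By limma's adjusted p, 0 of the 37 genes were called (0% of the 45037 probe sets), and also 0 of their 80 probe sets and 0 genes when the clone was fitted as a block. At an unadjusted p under 0.05 the count was 0 without the block (2.36% of genes) and 0 with it (4.7% of genes). The median difference, induced minus uninduced, was -0.00678 over the 37 genes and -0.00278 over all genes, with 18 genes higher and 19 lower.

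Differences ran from -0.17 for Rad50 to 0.12 for Chek1, and the intervals bound them. The 95% interval lay within a 1.5-fold difference in either direction for 36 genes (97.8% of all genes had such an interval). Rad50 was the exception, with -0.17 ± 0.19 (SE) and an interval of -0.59 to 0.26. With the clone as a block its interval was -0.38 to 0.05, within 1.5-fold. The median half-width of the intervals was 0.19. The genes with an E2F word had differences of -0.15 to 0.09, and those with an entry but no such word -0.11 to 0.12.

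By role, the median difference was -0.02 for homologous recombination, 0.00341 for resection, 0.02 for signalling, -0.00834 for end joining and 0.000101 for the Fanconi group. Within single clones, 1 array against 1, the median over the 37 genes was -0.06 for A3, 0.000461 for A4 and 0.04 for A5. The homologous recombination genes had medians of -0.11, -0.04 and 0.04 in A3, A4 and A5, and the Fanconi genes 0.02, 0.04 and 0.05. A clone with 1 array in each group has no replicate, so these differences between clones were not tested.

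**Figure D2:**
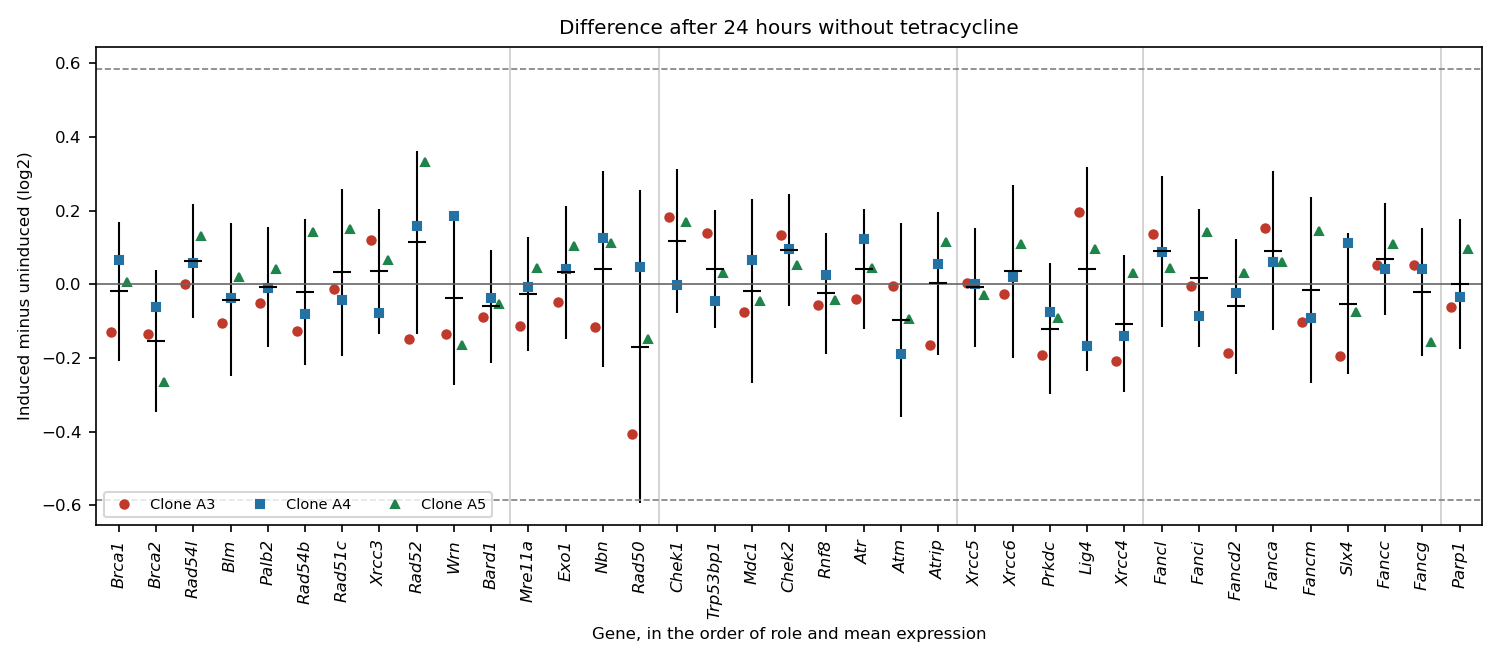
Log2 difference, induced minus uninduced (y axis), for the 37 genes in the order of role and mean signal (x axis); coloured symbols are single clones, black dashes the mean of 3 clones, vertical lines the 95% interval from limma without the block, and dashed lines a 1.5-fold difference. All intervals include 0, and Rad50 alone reaches past the 1.5-fold line.

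In 9 genes the 3 clones shared a sign. The difference was positive in every clone for Rad54l, Chek2, Fanca, Fancc and Fancl, 5 genes (12.9% of all genes), and negative in every clone for Brca2, Bard1, Atm and Prkdc, 4 genes (13.3% of all genes). The arrays of the groups did not overlap for 1 gene in each direction, Chek2 above (3.16% of all genes) and Brca2 below (4.07% of all genes).

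Chek2, the kinase that ATM activates, gave 8.29, 8.36 and 8.32 uninduced and 8.42, 8.45 and 8.37 induced in A3, A4 and A5. Every induced array was above every uninduced one, by 0.13, 0.10 and 0.05 within the clones. The mean difference was 0.09 ± 0.07 (SE, 95% interval -0.06 to 0.24), and limma's adjusted p was 1.

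Fanca, of the Fanconi core complex, gave 7.43, 7.71 and 7.66 uninduced and 7.58, 7.77 and 7.72 induced. Induced A3 was below uninduced A4 and A5, so the groups overlapped, and the mean difference was 0.09 ± 0.09 (SE). Over the arrays left out in turn it was lowest, 0.00705, when uninduced A3 was omitted and highest, 0.15, when uninduced A4 was. Its second probe set differed by -0.01. Fancl, with the values above, also overlapped and differed by 0.09 ± 0.09 (SE), with extremes of 0.02 without the induced A3 array and 0.15 without the induced A5 array.

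Brca2 gave 9.68, 9.62 and 9.88 uninduced and 9.55, 9.55 and 9.61 induced in A3, A4 and A5. Every induced array was below every uninduced one, with differences of -0.14, -0.06 and -0.27 within the clones. The mean difference was -0.15 ± 0.08 (SE, 95% interval -0.35 to 0.04), which had the smallest unadjusted p of the 37 genes, 0.104 in limma's test across all probe sets. With the clone as a block that p was 0.0684 and limma's adjusted p 0.843. Without the uninduced A5 array, the highest of the 6, the difference was -0.08.

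Prkdc gave 7.65, 7.54 and 7.70 uninduced and 7.45, 7.47 and 7.60 induced, and differed by -0.12 ± 0.08 (SE). Induced A5 was above uninduced A4, so the groups overlapped. Atm gave 7.83, 7.60 and 7.73 uninduced and 7.82, 7.41 and 7.64 induced, and differed by -0.10 ± 0.11 (SE). Its A3 arrays were almost equal, and without the induced A4 array the difference was 0.01. The second Atm probe set differed by 0.04.

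The clones were then compared, with induction taken out, since each clone mean rests on an uninduced and an induced array. By limma's F-test of the clone term, 0 of the 37 genes were called (3.09% of all genes), and the smallest adjusted p was 0.0906, for Rad50. At an unadjusted p under 0.05 the count was 7 (17.4% of all genes). The median range of the clone means was 0.143 over the 37 genes and 0.147 over all genes. In pairs, A4 minus A3 had 1 gene called, Rad50 (4.07% of all genes), A5 minus A3 had 0 (2.37%) and A5 minus A4 had 0 (0.0715%). At an unadjusted p under 0.05 these pairs had 9, 6 and 0 genes, against 20.1%, 14.9% and 7.53% of all genes. For 36 genes the intervals of all 3 pairs lay within a 1.5-fold difference, the exception again being Rad50.

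Rad50, the ATPase that tethers broken ends, gave 7.75 and 7.34 in A3 uninduced and induced, 8.07 and 8.11 in A4, and 8.05 and 7.91 in A5. Both A3 arrays were below the other 4, and the induced A3 array was the lowest. A4 exceeded A3 by 0.55 ± 0.11 (SE, 95% interval 0.28 to 0.81, limma's adjusted p 0.0475), and A5 exceeded A3 by 0.44 (adjusted p 0.132). The call was lost when either A4 array, either A5 array or the induced A3 array was left out, with adjusted p from 0.0508 to 0.264, and the difference was 0.37 to 0.72 over the arrays left out in turn. Without the induced A3 array it was 0.37. The other Rad50 probe set, with a mean of 3.67, differed by 0.02 between A4 and A3. In whole cultures, fewer cells that express a gene and less of its RNA per cell cannot be told apart.

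The other subunit genes of its complex were not called. Nbn gave 8.24 and 8.12 in A3, 8.39 and 8.52 in A4, and 8.39 and 8.51 in A5, uninduced and induced. Both A3 arrays were again the lowest, with A4 minus A3 at 0.28 ± 0.09 (SE, limma's adjusted p 0.182). Mre11a gave 9.53 and 9.42 in A3, 9.47 and 9.46 in A4, and 9.42 and 9.47 in A5, and A4 minus A3 was -0.01 (95% interval -0.21 to 0.19).

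**Figure D3:**
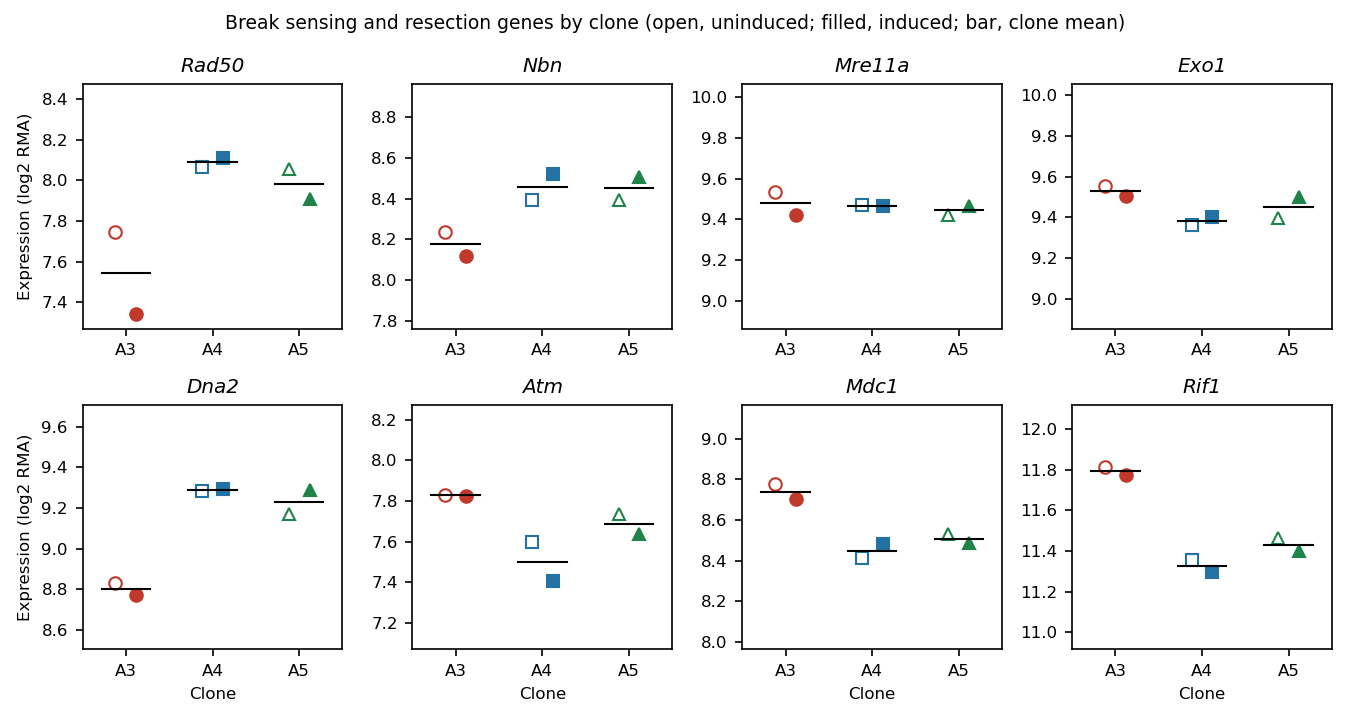
Log2 RMA signal (y axis) of 8 break sensing, resection and signalling genes by clone (x axis); open symbols are uninduced arrays, filled symbols induced arrays and bars clone means, and every panel spans the same range of log2 units. Rad50, Nbn and Dna2 are lowest in both A3 arrays, Exo1, Atm, Mdc1 and Rif1 are highest there, and Mre11a overlaps between clones.

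Atm and Lig4 had the next largest ranges of clone means, with the opposite order. For Atm both A3 arrays (values above) were the highest, and A4 minus A3 was -0.33 ± 0.09 (SE, limma's adjusted p 0.102). Its second probe set, at 7.41 and 7.56 in A3, 7.01 and 7.05 in A4, and 7.31 and 7.23 in A5, differed by -0.46 (adjusted p 0.0385). Lig4 gave 7.23 and 7.43 in A3, 7.12 and 6.95 in A4, and 7.03 and 7.13 in A5, uninduced and induced. Both A3 arrays were again above the other 4, with A4 minus A3 at -0.29 ± 0.11 (SE, limma's adjusted p 0.204). It was -0.14 without the induced A4 array, -0.18 without the induced A3 array and -0.45 when uninduced A4 was omitted.

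Among all 80 probe sets of the repair genes, 3 were called in A4 minus A3 (3.75%, against 2.94% of all probe sets), those of Rad50, Atm and Fancm. The Fancm probe set, not the one with the highest mean, gave 6.49 and 6.42 in A3, 5.91 and 6.02 in A4, and 6.06 and 6.09 in A5. It was higher in A3, and A4 minus A3 was -0.49 (limma's adjusted p 0.0262). The Fancm probe set with the highest mean differed by -0.29 (adjusted p 0.170), and all 3 Fancm probe sets had both A3 arrays above the other 4. Among the 20 genes with more than 1 probe set at a mean of at least 5, the probe sets shared the sign of A4 minus A3 for 11.

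Both A3 arrays were below the other 4 for 9 genes (16.6% of all genes) and above them for 6 (14% of all genes). The 9 lower ones were Palb2, Rad51c, Blm, Rad50, Nbn, Xrcc5, Xrcc6, Fanca and Parp1, and the 6 higher ones Exo1, Atm, Mdc1, Lig4, Fancl and Fancm. Both directions held resection, end joining and Fanconi genes. By the probe set of highest mean, homologous recombination genes were among the lower ones only (3 of 11) and signalling genes among the higher ones only (2 of 8). This split by role was not tested. It did not hold for other probe sets of recombination genes. Those of Brca1 with means of 8.10 and 7.91 and of Wrn with a mean of 5.72 had both A3 arrays above the other 4. Clone A4 had 7 genes below (11.2% of all genes) and 2 above (11.7%). Clone A5 had 0 below (5.77%) and 2 above (7.26%).

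**Figure D4:**
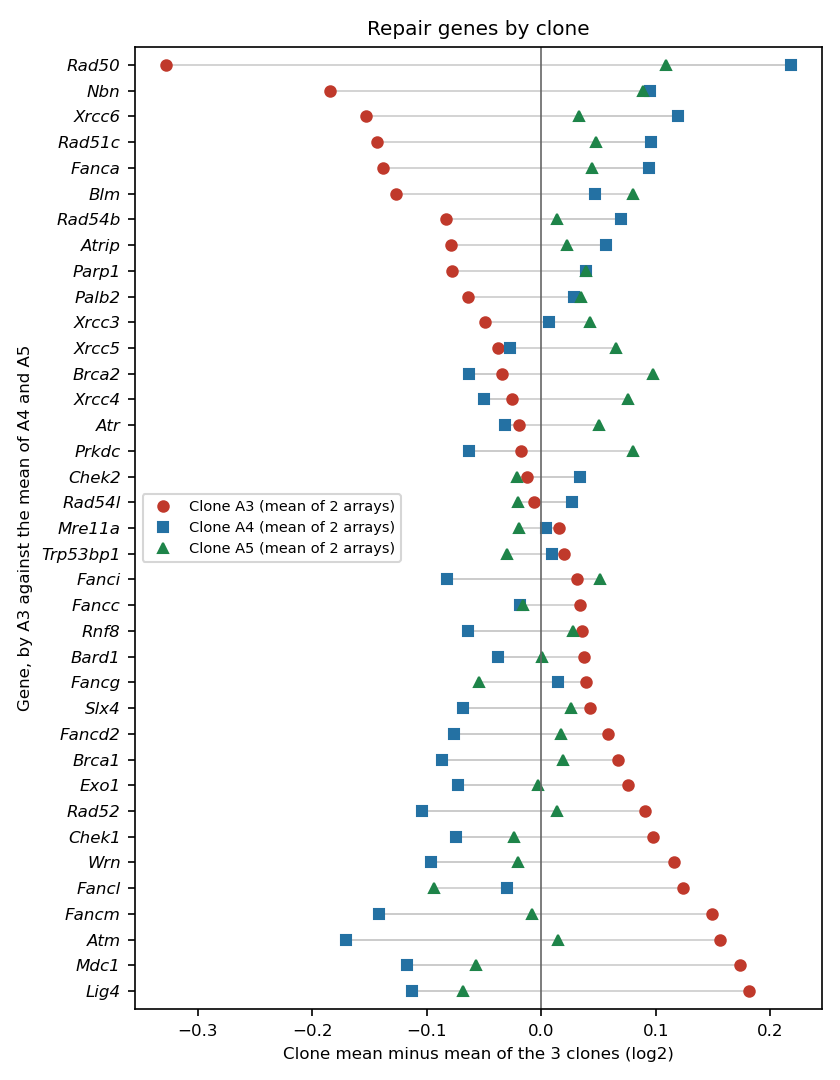
Clone mean (2 arrays) minus the mean of the 3 clones in log2 units (x axis) for the 37 genes, ordered by clone A3 against A4 and A5 (y axis); red circles are A3, blue squares A4 and green triangles A5. Rad50 is lowest in A3 by the widest margin, and Nbn, Xrcc6, Rad51c, Fanca and Blm are also lowest there. Lig4, Mdc1, Atm, Fancm and Fancl are highest in A3. The median range of the clone means is 0.143.

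A second list held 54 other genes of the pathway, of which 51 were measured. In induced against uninduced arrays 0 of them were called and 1 had an unadjusted p under 0.05 with the block (4.7% of all genes). Their median difference was 0.02, with 34 higher and 17 lower, against 8819 higher and 9374 lower of all genes. The clone term called 2 of the 51, Dna2 and Rif1 (3.09% of all genes). Dna2, a nuclease and helicase of long-range resection, gave 8.83 and 8.77 in A3, 9.29 and 9.30 in A4, and 9.17 and 9.29 in A5, and was lower in A3 (A4 minus A3 0.49 ± 0.09 SE, limma's adjusted p 0.0267). Rif1, which holds back resection with 53BP1 and also times replication, gave 11.81 and 11.78 in A3, 11.36 and 11.30 in A4, and 11.46 and 11.40 in A5, and was higher in A3 (-0.47 ± 0.08 SE, adjusted p 0.0244). Both pair calls were lost when either array of A3 or A4 was left out (adjusted p 0.0773 to 0.183 for Dna2 and 0.119 to 0.149 for Rif1), with differences of 0.43 to 0.55 and -0.48 to -0.46, and the clone term called 0 of the 51 without any 1 array.

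The pair A4 minus A3 called 4 of the 51 (4.07% of all genes), these 2 among them. It also called Rad51d, a recombination gene, with 6.14 and 6.23 in A3, 6.70 and 6.67 in A4, and 6.31 and 6.41 in A5 (0.50 ± 0.09 SE, limma's adjusted p 0.0234). It called Brcc3, the deubiquitinase gene of the BRCA1-A complex, with 8.65 and 8.71 in A3, 9.15 and 9.11 in A4, and 8.98 and 9.08 in A5 (0.45 ± 0.09 SE, adjusted p 0.0357). In both genes the A3 arrays were the lowest. Omitting any 1 of the A3 or A4 arrays also lost these calls, with differences of 0.43 to 0.56 for Rad51d (adjusted p 0.0772 to 0.177) and 0.38 to 0.51 for Brcc3 (adjusted p 0.0994 to 0.234). With the mean of all probe sets of a gene the difference was 0.19 for Rad51d (limma's adjusted p 0.141) and 0.05 for Brcc3 (adjusted p 0.799). In the same setting it was 0.42 for Dna2 (adjusted p 0.0759) and -0.50 for Rif1 (adjusted p 0.0102), so of these genes only Rif1 stayed called. Among the 37, Rad51c had A4 minus A3 of 0.24 and Xrcc3 of 0.06, neither called.

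Cell cycle genes were measured beside them. Of 14 S phase genes and 11 G2 and M phase genes, 0 were called in either comparison. Array means were 11.35 to 11.40 for S phase and 10.72 to 10.88 for G2 and M phase. In both sets of genes the highest mean of each group was in A3. For G2 and M phase the induced A3 and A5 arrays were almost equal (both 10.79).

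The clone term called 3.09% of all genes. Among the cell type markers it called Tfap2c and Eomes of the trophoblast list and the ES cell gene Fgf4. Pax6 of the neural list was called in A4 minus A3 only, a pair that called 4.07% of all genes. Tfap2c gave 8.32 and 8.31 in A3, 9.42 and 9.42 in A4, and 9.05 and 9.15 in A5, uninduced and induced (A4 minus A3 1.11, limma's adjusted p 0.00125). Eomes gave 6.04 and 5.98 in A3, 6.76 and 7.01 in A4, and 6.67 and 6.61 in A5 (0.87, adjusted p 0.00534). Both genes were lowest in A3. Fgf4 was highest there, with 10.17 and 10.16 in A3, 9.62 and 9.68 in A4, and 9.65 and 9.72 in A5 (-0.51, adjusted p 0.0184). Of the 10 ES cell markers, 4 had both A3 arrays below the other 4 arrays (16.6% of all genes) and 2 had them above (14%). The median A4 minus A3 of the 10 was 0.07. Both A3 arrays were also below for all 3 mesoderm, 3 of 6 endoderm and 2 of 4 trophoblast markers, but for 0 neural and 0 fibroblast markers. Pax6 gave 6.15 and 6.11 in A3, 6.69 and 6.63 in A4, and 6.11 and 6.39 in A5 (0.53, adjusted p 0.0370), so that A4 was above the other 4 arrays and A3 and A5 overlapped. Tfap2c, Eomes, Fgf4 and the poly-A spikes moved with the same clone as Rad50, Dna2 and Rif1, Pax6 differed in the same pair, and their part in those differences was not tested.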

How the data were processed

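Total RNA of 6 samples was hybridized to Mouse Genome 430 2.0 arrays. The deposited values are log2 RMA signals, 1 per probe set, which the authors made by background correction, quantile normalization and summarization in the affy package. The submitters' processing notes give no version of affy or RMA, and which arrays were normalized together is not given in the sources used here. Of 45101 probe sets, 64 are controls, which leaves 45037 that were tested, with no filter on signal. The annotation table gives 1 symbol for 34945, several for 932 and none for 9160. All 37 measured genes matched the RefSeq gene table by Entrez identifier. Of the per-sample columns, 0 were left unused.

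Groups and clones were taken from the labels. The effect of induction was tested two-sided with lmFit and eBayes of limma 3.58.1, run in R 4.3.3. Adjusted p under 0.05 (Benjamini-Hochberg over all 45037 probe sets) was the threshold. The methods name a t-test without pairing, so the clone was left out as a block and then added as an alternative. The replicate numbers, which are the clone numbers of the labels, pair the samples. After group means were taken out, the 2 arrays of 1 clone correlated at 0.524 (A3), 0.376 (A4) and 0.21 (A5), against -0.407 to 0.0689 for different clones. Taking out group means builds in part of this contrast, so it is not independent evidence of the pairing. Clones were compared by a moderated F-test and by pairs in a model with clone and induction. The 3 pairs share arrays. Intervals are 95% intervals of the limma fit.

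The genes, the lists and the tests were chosen with earlier results of these data known. Values in every array are given for repair genes called in any comparison, for the 3 genes with the largest differences in each direction among those with 1 sign in 3 clones, for the 3 with the largest range of clone means, and for the highest and lowest signal in recombination, end joining and the Fanconi group. Nbn, Mre11a and the cell type markers were named after their values were seen. Alternatives were the replicate block, the methods' t-test, an intensity trend, a mean of at least 5, centring of arrays, the mean of all probe sets of a gene, the clone term alone, and leaving out each array or clone. The fits were tested on simulated data. Promoters were read from a RefSeq table in Python 3.11.15, and no coordinates of probe sets are given.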

Additional observations from a re-analysis of the deposited data

How the results depend on the processing

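In induced against uninduced arrays 0 repair genes were called with the replicate block and in every alternative run, which included the methods' t-test, and the median difference stayed between -0.03 and 0.01 when each array was left out. The block changed no call. Clone calls did depend on the fit, and the cause was not tested. The clone term called 1 gene with an intensity trend and 1 with a mean of at least 5, Rad50 in both (adjusted p 0.00947 and 0.0332), and 0 without any 1 array. For A4 minus A3 the count of 1 became 4 with the trend (Rad50, Atm, Mdc1, Xrcc6), 3 with a mean of at least 5 (Rad50, Atm, Mdc1), 2 with the mean of all probe sets (Atm, Fancm), 0 after centring, 0 with the clone term alone, 0 without both A5 arrays and 0 to 1 without 1 array. Rad50 was called without the uninduced A3 array only. For A5 minus A3 the trend called 1, Rad50. Of the other pathway genes, 2 by the clone term became 6 with the trend, 4 with a mean of at least 5, 1 after centring, 1 with the mean of all probe sets, 0 to 0 without 1 array, 0 without both A3 arrays, 0 without both A4 arrays and 4 without both A5 arrays. The trend called 2 cell cycle genes by clone. With the mean of all probe sets the median signal was 7.41 for recombination, 7.15 for end joining and 6.48 for Fanconi genes. The Atm difference, induced minus uninduced, ran from -0.20 to 0.012 when each array was left out, and its sign turned without induced replicate 2 (A4).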
